A study of Mus musculus with 42 samples.

Results

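The uterus of mice labelled Hoxd9,10,11-/- was compared with the wild-type uterus, on the 6 arrays of those groups out of the 42 arrays of the series. Hoxd9, Hoxd10 and Hoxd11 are neighbouring homeobox genes that encode transcription factors, and the series also holds mice with the paralogous genes Hoxa9, Hoxa10 and Hoxa11 mutated. Each group had 3 arrays, which the labels call biological replicates. All mice were adults of 3 to 7 months on a CD1/129 background, and every female was collected in diestrus. The 5 uterus groups are wild type (WT), Hoxa9,10,11-/- (AKO), Hoxd9,10,11-/- (DKO), Hoxa9,10,11-/-d9,10,11+/- (AKDH) and Hoxa9,10,11+/-d9,10,11-/- (AHDK), and the vas deferens of the males was measured in the same 5 genotypes. The labels do not state how the genes were disrupted, and no conditional allele is named. Every gene with probe sets of 1 gene symbol was kept, which gave 19938 genes.

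Hox genes from this end of the clusters pattern the reproductive tract along its length, and the adult uterus keeps expressing them in its stroma. The stroma is known to act on the glands and on the lining epithelium, and it holds resident leukocytes, whose numbers follow the oestrous cycle. Diestrus is the phase in which progesterone from the corpora lutea is high.

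The deposited values are logarithms, taken here as log2, and centring by the authors put the median of every probe set over the 21 female arrays at exactly 0. A value therefore gives a gene's level relative to the middle female array, and a change is the difference of the DKO and WT group means on that scale. Genes past an adjusted p of 0.05 in limma's moderated test over all genes are called. The medians of the 15 uterus arrays lay between -0.02 and 0.03. Markers of oviduct and motile cilia averaged between -0.13 and 0.00 in the WT uterus and between -0.15 and 0.01 in DKO, against 3.5 to 4.0 in the WT oviduct. Of 18 measured adipocyte genes none was called, with a median change of 0.06, but some were uneven within both groups. Adipoq, picked after its values were seen, read 1.83, -0.37 and -0.52 in WT and 0.00, -0.34 and 1.75 in DKO. The part of fat in other values was not tested. WT replicate 1 stood apart in the mean of the 45 measured cell cycle genes, at -0.49 against 0.53 and 0.34 in the other two WT arrays, and it also stood apart in Prss28, a secreted protease gene of uterine glands picked after its values were seen, at 6.64 against 0.19 and 0.11. The mean over 368 small RNA genes, which the study did not set out to compare, was 0.29, 0.21 and 0.23 in the WT arrays and -0.03, 0.04 and -0.05 in DKO. The comparison was therefore refitted with the small RNA mean as a covariate. Every WT array lay above every DKO array in that mean, so the fit cannot part the covariate from the genotype cleanly. Its changes are imprecise and are not read as corrected effects. That fit's value stands beside a called change of DKO against WT uterus where that change moved by more than 1.5 times. Uncalled changes and list medians also moved, and for these the fit's value is given in some cases only.

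None of the 3 targeted genes was called. Hoxd9 read 0.50, -0.10 and 0.44 in WT and 0.00, 0.19 and 0.31 in DKO. Hoxd10 read 0.23, 0.05 and 0.31 in WT and 0.20, 0.42 and 0.51 in DKO. Hoxd11 read 1.02, 0.36 and 1.19 in WT and 0.18, 0.77 and 1.11 in DKO. The values of WT and DKO overlapped for each of the 3 genes, and the changes of -0.12, 0.18 and -0.17 had adjusted p-values of 0.902, 0.839 and 0.865. The sources used here give neither the position of the probes nor the altered part of each gene, so these levels do not check the labels, and DKO below means the arrays labelled so. In the vas deferens of the same genotype Hoxd9 fell by 0.55 (adjusted p = 0.00581), while Hoxd10 changed by 0.16 and Hoxd11 by -0.47 without a call (adjusted p = 0.774 and 0.144). Among the paralogs, Hoxa9 changed by -0.25, Hoxa10 by -0.11 and Hoxa11 by 0.10, none of them called. With the small RNA covariate the uterine changes were -0.04 for Hoxd9, -0.31 for Hoxd10 and -0.26 for Hoxd11. They were -1.16 for Hoxa9, -0.34 for Hoxa10 and 0.63 for Hoxa11, again without a call. Hoxa11 read 2.75, 1.23 and 2.19 in WT and 1.81, 2.01 and 2.65 in DKO, and its change in AKO was -2.56 without a call (adjusted p = 0.112). In AKO Hoxa10 changed by -1.11 and Hoxa9 by -0.32, also without a call (adjusted p = 0.433 and 0.900).

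In the DKO uterus 124 genes were higher than in WT and 70 were lower. These are 0.622% and 0.351% of the genes tested, and 3048 genes had an unadjusted p below 0.05. The largest rises included markers of granulocytes, macrophages and dendritic cells, chemokine and antigen presentation genes, and Sfrp1, which encodes a WNT-binding protein. The largest falls were small RNA genes, and others were the snoRNA host gene Snhg17, the deubiquitinase gene Usp31 and the claudin gene Cldn8. All 194 genes had 3 DKO values on one side of the 3 WT values, as did 11.6% of all genes toward higher and 9.27% toward lower values. The median change was 0.61 among the rises and -0.57 among the falls, and 23 rises exceeded 1 on the log2 scale. DKO replicate 1 was the highest of the DKO arrays in 20 of these 23 rises and in 64 of all 124. Of the 14 falls beyond -1, 11 were small RNA genes.

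These counts changed much when 1 array was left out, which by itself also lowers the power to call. Leaving out WT replicate 1, 2 or 3 gave 23, 2 or 3 calls, and leaving out DKO replicate 1, 2 or 3 gave 133, 14 or 6. Some of these calls were new genes. Of the 194, 19, 2 or 2 were still called without WT replicate 1, 2 or 3. Without DKO replicate 1, 2 or 3, 69, 14 or 5 of them were. Quantile normalisation between arrays gave 4 rises and 15 falls, 18 of them among the 194. The 6 arrays fitted alone gave no call, with 2692 genes at an unadjusted p below 0.05. The fit with the small RNA mean as a covariate gave none either, with 690 such genes. That mean separates WT from DKO, so the fit has less power and its lack of calls decides nothing. With the small RNA covariate the change of 115 of the 194 genes moved by more than 1.5 times, among them 7 of the 15 largest rises and 6 of the 15 largest falls named below. In every one of these fits that gave a value, all 194 genes kept the direction of their change.

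**Figure D1:**
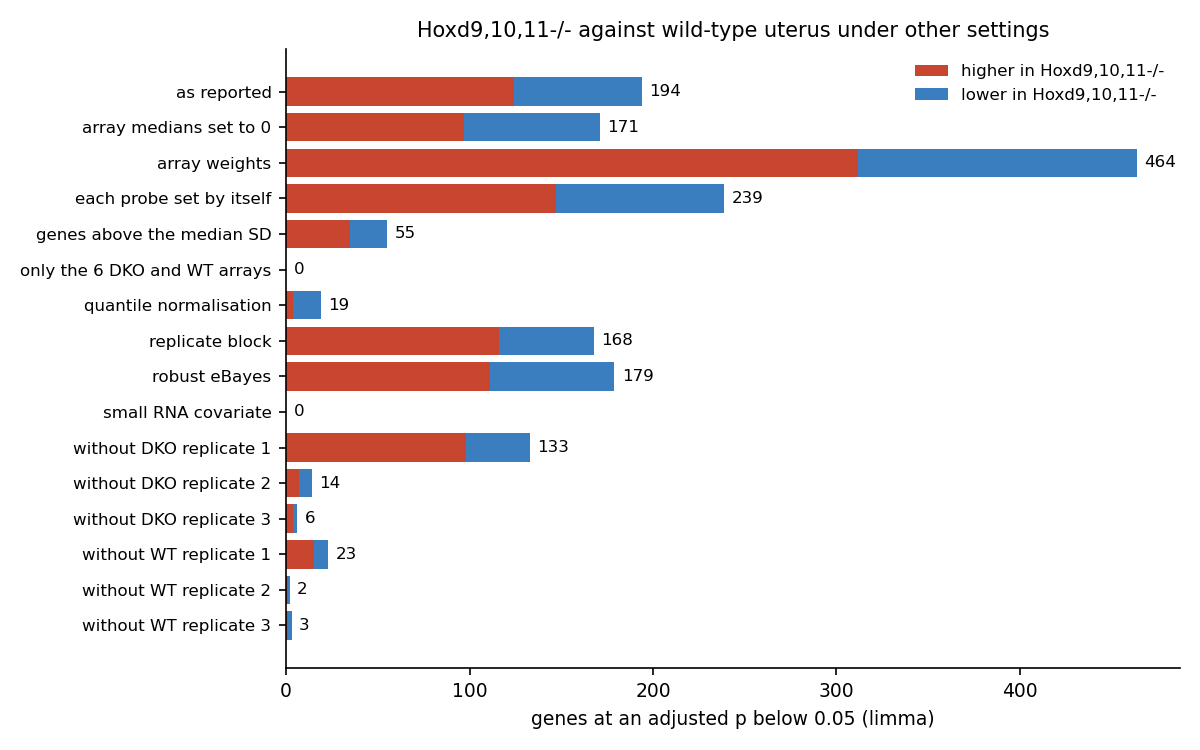
Number of genes called (horizontal axis, limma, adjusted p below 0.05) for DKO against WT uterus under each setting (vertical axis), split into higher (red) and lower (blue) in DKO. The 194 calls as reported fell to 19 after quantile normalisation and to 0 with the 6 arrays alone or with the small RNA covariate, and rose to 464 with array weights.

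Granulocyte genes gave the largest rises. Retnlg, which encodes a resistin-like protein of neutrophils and their precursors, read -0.32, -0.29 and -0.33 in WT and 4.03, 2.55 and 2.84 in DKO. The WT arrays were nearly equal and every DKO array lay far above them, with replicate 1 the highest, a rise of 3.45 (SE 0.67, adjusted p = 0.0397) that was 1.08 with the small RNA covariate. Ccr3, the eotaxin receptor of eosinophils, read 0.00, -0.31 and -0.27 in WT and 3.13, 1.42 and 1.78 in DKO, a rise of 2.30 (SE 0.44, adjusted p = 0.0397) that was 1.23 with the covariate. Again the groups did not overlap and DKO replicate 1 was the highest.

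Of the 22 measured neutrophil and eosinophil markers, 2 rose, against 0.622% of all genes. In this list 20 lay above WT and the median change was 0.57. Over all genes the median change was 0.01 and 53.9% lay above WT. The list lay above the middle of all genes, but lists and members were chosen with earlier results of these data known. Nothing is therefore read from such shares, here and for the lists below. Among the members that were not called, the changes were 0.58 for Il5ra, the interleukin 5 receptor chain of eosinophils, 1.46 for the gelatinase gene Mmp9 and 0.57 for the eosinophil granule protein gene Prg2 (adjusted p = 0.0912, 0.101 and 0.108). These were the uncalled members of smallest p. Some other uncalled members changed little, with -0.15 for Camp, -0.06 for Elane, 0.06 for Ly6g and 0.09 for Mpo. Cxcr2 read 4.35, 0.90 and 0.32 in DKO and S100a9 read 1.99, -0.10 and 0.06, with replicate 1 far the highest. The list averaged -0.41, 0.04 and -0.07 in the WT arrays and 1.23, 0.41 and 0.25 in DKO. Without DKO replicate 1 its median change was 0.27. As these are whole-tissue RNA samples, more cells of a type and more RNA per cell cannot be told apart, here and in all groups of genes below.

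Chemokine genes also rose. Ccl6, a CC chemokine of myeloid cells, read -1.53, -1.43 and -1.05 in WT and 1.21, 0.22 and 0.00 in DKO, a rise of 1.81 (SE 0.26, adjusted p = 0.0236). Its neighbour and relative Ccl9 read -0.82, -0.92 and -0.70 in WT and 0.86, -0.08 and 0.07 in DKO, a rise of 1.10. For both genes the 2 groups did not overlap. With Ccr3 these were the only called genes among 52 measured chemokines and chemokine receptors, of which 38 lay above WT, with a median of 0.20. Among all genes 0.622% were called higher. The eotaxin gene Ccl11 changed by 1.31 (adjusted p = 0.0647), Ccl8 by 1.57 (0.109) and Ccl7 by 0.62, without passing the test. Among 33 interleukins and their receptors, Il4, a cytokine of type 2 immunity, was the 1 called gene. It read -0.03, 0.00 and -0.07 in WT and 0.34, 0.16 and 0.30 in DKO, a small rise of 0.30 with no overlap, which was 0.14 with the small RNA covariate.

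Genes of macrophages and dendritic cells were next. Cd209f, a C-type lectin gene of the DC-SIGN family, read -1.42, -1.55 and -1.75 in WT and 0.76, 0.13 and 1.17 in DKO. This rise of 2.26 (adjusted p = 0.0397) is one in which DKO replicate 3, not replicate 1, was the highest. Fcer1g, the signalling chain shared by several Fc receptors, read -0.26, -0.54 and -0.27 in WT and 1.68, 0.50 and 0.83 in DKO, a rise of 1.36. Of 39 measured macrophage and dendritic cell markers 38 lay above WT, with a median change of 0.61. Of the list 23 were higher without overlap, against 11.6% of all genes. Only Cd209f and Fcer1g were called, against 0.622% of all genes called higher. The integrin gene Itgam changed by 1.28, the transcription factor gene Spi1 by 1.08 and the growth factor receptor gene Csf1r by 0.98 (adjusted p = 0.0595, 0.0809 and 0.0834).

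**Figure D2:**
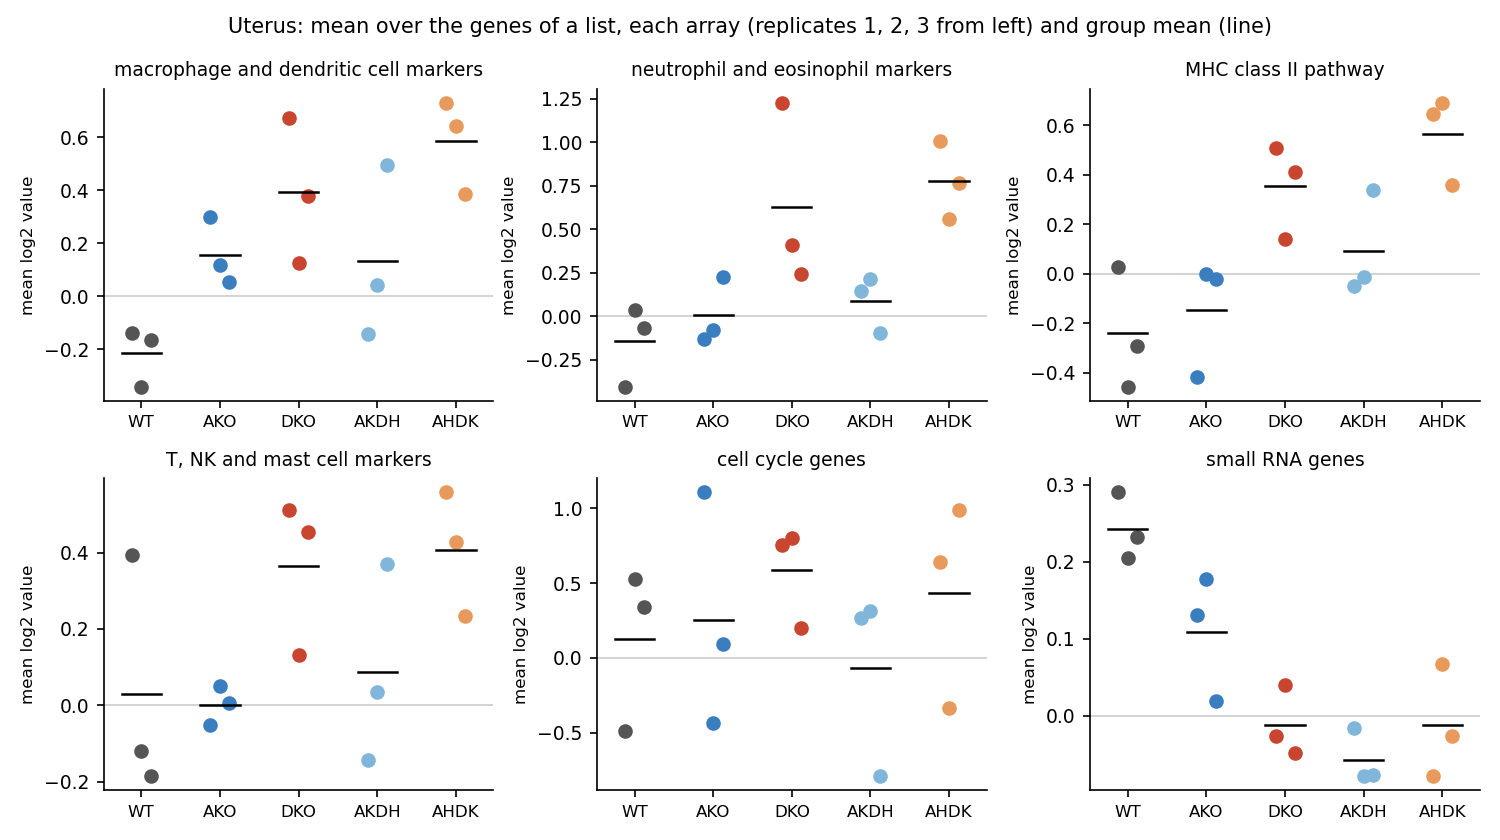
Mean log2 value (vertical axis, relative to the median of the female arrays) over the genes of 6 lists in the 15 uterus arrays, by genotype, with replicates 1, 2 and 3 from left to right and the group mean as a line. For macrophage and dendritic cell markers the DKO arrays lie at 0.67, 0.13 and 0.38 and the WT arrays at -0.14, -0.34 and -0.16; for the small RNA genes every WT array lies above every DKO array.

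Further myeloid genes were among the 15 largest rises. Clec4a3 and Clec4a1, lectin receptor genes of a clustered family, rose by 1.85 (1.17 with the small RNA covariate) and 1.56; whether their probe sets cross-hybridise was not tested. Gapt, an adaptor protein gene of blood cells, read -0.21, -0.36 and -0.30 in WT and 2.19, 1.37 and 1.36 in DKO. The 3 WT arrays were tightly grouped and the rise of 1.93 had an SE of 0.24 (adjusted p = 0.0178) and was 1.26 with the covariate. Pla2g2d, a secreted phospholipase, rose by 1.64, Rgs18, a regulator of G protein signalling in blood cells, by 1.41, the small GTPase gene Rac2 by 1.25 and the adhesion receptor gene Adgre4 by 1.16. With the covariate the changes were 0.76 for Pla2g2d, 0.56 for Rgs18 and 0.57 for Adgre4. Alox5, the 5-lipoxygenase that starts leukotriene synthesis, read -0.29, -0.81 and -0.56 in WT and 1.01, 0.60 and 0.53 in DKO, a rise of 1.27 (adjusted p = 0.0236). Its groups were separated by more than either group's spread.

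Other called genes of leukocytes fall outside the naming rule and were picked after their values were seen. Alox5ap, whose product presents the substrate to 5-lipoxygenase, rose by 1.06. Ncf1, a subunit of the phagocyte NADPH oxidase, rose by 1.13, with DKO values of 1.73, 0.76 and 0.77 against -0.07, -0.08 and 0.03 in WT. The actin regulator Coro1a rose by 0.98 and the inhibitory collagen receptor Lair1 by 0.69 (0.31 with the small RNA covariate). Apoe, a lipid carrier abundant in macrophages, rose by 0.64.

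The antigen presentation genes of MHC class II load peptides onto surface molecules for helper T cells. H2-Aa, the alpha chain of the I-A molecule, read -0.24, -1.53 and -0.996 in WT and 0.56, 0.20 and 0.42 in DKO, a rise of 1.32 (SE 0.26, adjusted p = 0.0404). The WT arrays were the more widely spread, and all lay below the DKO arrays. H2-DMa, a chain of the peptide exchange catalyst, read -0.35, -0.51 and -0.49 in WT and 0.92, 0.40 and 0.69 in DKO, a rise of 1.12. Cd74, the invariant chain, read -0.20, -0.26 and -0.40 in WT and 0.57, 0.23 and 0.30 in DKO, a rise of 0.66 (adjusted p = 0.0483). All 10 measured genes of the pathway lay above WT, 5 of them without overlap and 3 of them called, with a median of 0.53. Over all genes 11.6% were higher without overlap and 0.622% were called higher. The protease gene Ctss changed by 0.72, the beta chain gene H2-Ab1 by 0.69 and the thiol reductase gene Ifi30 by 0.37, with adjusted p-values between 0.207 and 0.270.

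Class II promoters are known for a shared Y box, an inverted CCAAT element bound by NF-Y. The exact letters CTGATTGG, searched on both strands of the 250 bases before each start in RefSeq (GRCm38.p6), were found for 3 of the 7 class II genes that had a promoter entry. They were in 3.83% of all 32851 promoter windows. The stretches of these 3 genes are shown because members of the pathway rose, with the match in capitals, 5′ to 3′ on the gene's strand:
H2-Aa, chr17:34287824-34287934, minus strand: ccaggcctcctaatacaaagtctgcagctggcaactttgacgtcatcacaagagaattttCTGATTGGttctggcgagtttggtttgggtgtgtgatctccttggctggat
H2-Eb1, chr17:34305745-34305866, plus strand: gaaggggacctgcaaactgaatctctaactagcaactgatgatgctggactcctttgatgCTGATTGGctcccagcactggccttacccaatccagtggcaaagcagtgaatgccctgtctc
H2-Oa, chr17:34092273-34092378, plus strand: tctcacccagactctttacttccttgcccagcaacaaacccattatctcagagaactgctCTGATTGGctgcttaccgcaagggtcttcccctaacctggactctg
The match began 51, 62 and 46 bases before the start. Of these 3 genes H2-Aa was called, and H2-Eb1 and H2-Oa changed by 0.24 and 0.17 without a call. H2-DMa, which rose, has none of these letters in its 2 windows.

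No marker on the T, NK and mast cell list or on the B and plasma cell list was called. Of 28 T, NK and mast cell markers 24 lay above WT with a median of 0.24, and Cd3e, a chain of the T cell receptor complex, changed by 0.73 (adjusted p = 0.0686). Of 13 B and plasma cell markers 11 lay above WT with a median of 0.40, and Cd79b, a chain of the B cell receptor, changed by 0.57 (adjusted p = 0.061). Over the 5 leukocyte lists together, 7 of 112 genes rose, 103 lay above WT and 44 did so without overlap. Among all genes 0.622% rose and 11.6% were higher without overlap. As the lists were chosen with earlier results known, nothing is read from these shares. The mean of these 112 genes was -0.02, -0.21 and -0.18 in the WT arrays and 0.69, 0.16 and 0.39 in DKO, so every DKO array lay above every WT array. With the small RNA mean as a covariate the median change was 0.19 for the neutrophil and eosinophil list, 0.46 for the macrophage and dendritic cell list, 0.61 for the class II list and -0.01 for the B and plasma cell list.

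Complement and interferon genes gave no call. Of 28 complement genes 22 lay above WT with a median of 0.32, and the anaphylatoxin receptor gene C5ar1 changed by 1.00 (adjusted p = 0.0562). Without DKO replicate 1 the complement median was 0.14. Of 28 interferon response genes 20 lay above WT with a median of 0.06, close to the 0.01 of all genes, and Bst2 changed by 0.46. Red cell genes, which mark blood left in the tissue, averaged -0.07 to 0.11 in the WT arrays and -0.03 to 0.36 in DKO, with 4 genes measured and none called. Their part in the leukocyte values was not tested.

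Sfrp1 had the smallest p-value of the 15 largest rises. It encodes a secreted protein that binds WNT ligands and is made by stromal cells. Sfrp1 read -1.31, -1.66 and -1.60 in WT and 0.06, 0.20 and 0.58 in DKO. All 3 DKO arrays lay more than 1 above all 3 WT arrays, and the rise was 1.80 (SE 0.15, 95% interval 1.48 to 2.13, adjusted p = 0.000918). It was called whichever of the 6 arrays was left out, with rises between 1.65 and 1.91, and after quantile normalisation (adjusted p = 0.011). With the small RNA covariate the rise was 1.76 (adjusted p = 0.836), and in the fit of the 6 arrays alone it was not called either. Of the 30 largest rises and falls named here it was the only one called in all 6 such fits, and 15 were called in none.

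Sfrp1 was the only called gene among 56 WNT pathway genes and among 32 uterine stroma genes. Among all genes 0.622% were called higher. The WNT list had a median of 0.05, or -0.0044 after quantile normalisation. Of the stroma genes 26 lay above WT with a median of 0.20. The retinoic acid synthesis gene Aldh1a2 changed by 0.84, the proteoglycan gene Lum by 0.95 and the transcription factor gene Tcf21 by 0.70 (adjusted p = 0.109, 0.112 and 0.167). Fgf18, a fibroblast growth factor gene, was the only called gene among 28 FGF ligands and receptors. It read -1.35, -1.002 and -1.003 in WT and -0.45, -0.30 and -0.70 in DKO, a rise of 0.64 (adjusted p = 0.0475) with no overlap. The water and glycerol channel gene Aqp9 read -0.06, 0.00 and -0.07 in WT and 0.58, 0.39 and 0.24 in DKO, a rise of 0.45, and was the only called gene among 25 ion and water transport genes.

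**Figure D3:**
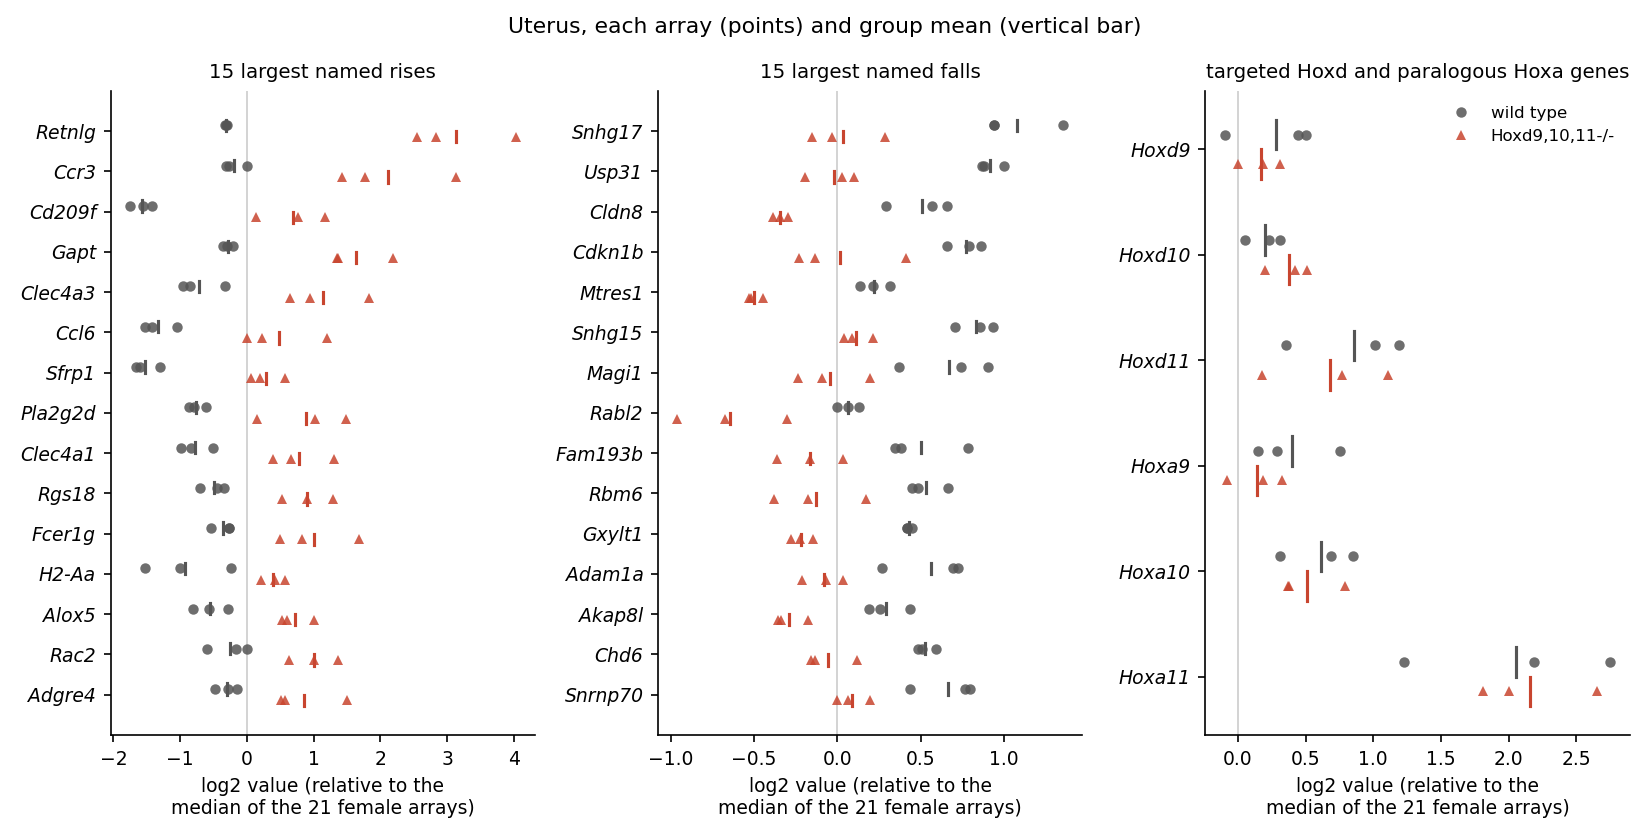
Log2 value (horizontal axis, relative to the median of the 21 female arrays) of each WT (grey circles) and DKO (red triangles) uterus array, with group means as vertical bars, for the 15 largest rises, the 15 largest falls, and the targeted Hoxd and paralogous Hoxa genes (vertical axes). The groups do not overlap for any gene of the first 2 panels and overlap for all 6 Hox genes; Retnlg spans -0.33 to 4.03.

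Small RNA genes made up most of the steep falls. Of 368 measured small RNA genes, 19 were lower in DKO (5.16%, against 0.351% of all genes) and none was higher. Below WT lay 277, with a median of -0.12. Against the same WT arrays, all 19, Mir10b among them, were also called lower in AKDH and 18 in AHDK. In AKO all 19 lay below WT and 1 was called. The 19 comprise 10 microRNA genes, 8 snoRNA genes, which guide chemical modification of other RNAs, and Rpph1, the RNA of ribonuclease P. Snora33 read 2.54, 2.30 and 1.86 in WT and -0.29, -0.04 and -0.56 in DKO, a fall of 2.53 on the log2 scale (adjusted p = 0.0316). Snora31 fell by 1.73 and Snora74a by 1.70. Snord47 read 1.23, 0.97 and 1.09 in WT and 0.00, -0.38 and -0.40 in DKO, and its fall of 1.36 had the smallest p-value of the 19 (adjusted p = 0.00118). The mean of all 368 genes separated the WT arrays from the DKO arrays, as given above, and the part of RNA recovery in these falls was not tested. With that mean as a covariate, to which these genes themselves contribute, 14 of the 19 moved by more than 1.5 times: Snora33 was at -1.002, Snora31 at -0.65 and Snora74a at -0.49, whereas Snord47 stayed at -1.21.

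The 4 microRNA genes with the steepest falls are shown with their mature sequences from RefSeq (GRCm38.p6), seed bases 2 to 8 in capitals, since the seed sets which messages a microRNA pairs with:
mmu-miR-10b-5p, chr2:74726074-74726096, plus strand: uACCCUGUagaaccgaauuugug
mmu-miR-10b-3p, chr2:74726114-74726135, plus strand: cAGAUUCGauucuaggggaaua
mmu-miR-15a-5p, chr14:61632075-61632096, minus strand: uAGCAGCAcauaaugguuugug
mmu-miR-15a-3p, chr14:61632038-61632059, minus strand: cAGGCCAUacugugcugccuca
mmu-miR-181b-5p, chr1:137966650-137966673, plus strand: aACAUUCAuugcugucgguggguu
mmu-miR-181b-1-3p, chr1:137966690-137966710, plus strand: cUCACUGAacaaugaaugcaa
mmu-miR-491-5p, chr4:88122057-88122078, plus strand: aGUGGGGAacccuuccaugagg
mmu-miR-491-3p, chr4:88122091-88122112, plus strand: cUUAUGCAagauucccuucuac
All 10 called microRNA genes matched RefSeq, and no 2 of their mature sequences share a seed. Whether the probe sets read the primary transcript, the hairpin or the mature RNA is stated by no source used here.

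Mir10b lies in the HoxD cluster next to Hoxd4. It read 1.46, 1.54 and 1.73 in WT and 0.00, -0.02 and -0.24 in DKO, a fall of 1.66 (SE 0.27, adjusted p = 0.0316) with a wide gap between the groups, and it was at -1.61 with the small RNA covariate. Mir15a read 1.22, 1.07 and 0.92 in WT and 0.11, -0.36 and -0.75 in DKO, a fall of 1.40. Mir181b-1 read 1.06, 1.60 and 1.68 in WT and 0.70, 0.03 and -0.19 in DKO, a fall of 1.26. Its gap between the groups, carried by DKO replicate 1, was the narrowest of these 3. Mir491 fell by 1.04, and with the covariate Mir15a was at -0.79, Mir181b-1 at -1.27 and Mir491 at -0.22. The other 6 microRNA genes fell by less than Mir491, down to 0.27 for Mir32.

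The genes around the HoxD cluster were examined because mutation of neighbouring genes can alter a shared locus. Of 81 genes within 5 Mb, 2 were higher and 1, Mir10b, was lower, which is 3.70%, against the 0.622% higher and 0.351% lower among all genes. As this region was chosen with its calls known, nothing is read from that share. Mtx2, a mitochondrial import gene beside the cluster, read -0.35, -0.27 and -0.51 in WT and 0.30, 0.28 and 0.22 in DKO, a rise of 0.65 (adjusted p = 0.0375) that was 0.23 with the small RNA covariate. Metap1d, a mitochondrial methionine aminopeptidase gene, read -0.10, -0.07 and 0.01 in WT and 0.61, 0.48 and 0.57 in DKO, a rise of 0.60 (SE 0.08, adjusted p = 0.0231) that was 0.38 with it. Within the cluster, Hoxd4 changed by -0.51, Hoxd8 by 0.52 and Hoxd3 by -0.47, none called (adjusted p = 0.371, 0.374 and 0.130). Hoxd4, Hoxd8 and Hoxd3 all had non-overlapping groups. WT and DKO read 0.69, 0.89 and 0.75 against 0.30, 0.27 and 0.22 for Hoxd4. For Hoxd3 they read 0.32, 0.31 and 0.65 against -0.19, 0.06 and 0.00. Of the 81 genes, 13 were higher and 7 lower without overlap, against 11.6% and 9.27% of all genes. The median change of the 81 genes was 0.04. Among 26 Hox genes outside the targeted genes, their paralogs and the HoxD cluster, none was called, and the smallest adjusted p-values belonged to Hoxb5 (-0.76, 0.09) and Hoxb4 (-0.75, 0.124).

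Host genes of snoRNAs carry these RNAs in their introns. Of 21 listed host genes 6 were measured. Of these 5 lay below WT with a median of -0.52, and 2 were called lower, against 0.351% of all genes. Snhg17 read 1.35, 0.94 and 0.94 in WT and -0.15, 0.29 and -0.03 in DKO, a fall of 1.04, and its 3 probe sets changed by -1.09, -0.75 and -1.28. Snhg15 read 0.93, 0.86 and 0.71 in WT and 0.04, 0.21 and 0.08 in DKO, a fall of 0.72 (adjusted p = 0.0236). Both genes showed a gap between the groups. With the small RNA covariate the changes were -0.14 for Snhg17 and -0.32 for Snhg15.

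Among the 51 falls that were not small RNA genes, Cldn8 encodes a tight junction claudin of epithelia. It read 0.66, 0.57 and 0.29 in WT and -0.39, -0.34 and -0.30 in DKO, a fall of 0.85 (SE 0.15, adjusted p = 0.0361). The DKO arrays were nearly equal and all below 0. It was the 1 called gene of 27 claudins and tight junction genes, of which 18 lay below WT with a median of -0.06. Among all genes 0.351% were called lower. Cdkn1b encodes p27, an inhibitor of cyclin-dependent kinases, and was the 1 called gene of 14 cell cycle inhibitors and quiescence genes. It read 0.86, 0.79 and 0.66 in WT and 0.41, -0.23 and -0.13 in DKO, a fall of 0.75 (adjusted p = 0.0404). Its probe sets disagreed in size, with changes of -0.18 (adjusted p = 0.536) and -1.33 (adjusted p = 0.0248). All 45 measured cell cycle genes lay above WT, none without overlap and none called, with a median of 0.44. That median was 0.16 without WT replicate 1, whose own mean of this list is the lowest of the 6 arrays, and -0.25 with the small RNA covariate.

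The other genes among the 15 largest falls have various roles. Gxylt1, a xylosyltransferase that extends sugars on Notch, read 0.45, 0.42 and 0.42 in WT and -0.28, -0.15 and -0.23 in DKO, a fall of 0.65 (SE 0.07, adjusted p = 0.00883) and a change of -0.36 with the small RNA covariate. Both groups were tight. Usp31, a deubiquitinase gene, fell by 0.94, with -0.41 under the covariate and probe sets that disagreed in size, at -1.45 (adjusted p = 0.0234) and -0.42 (adjusted p = 0.123). The scaffold gene Magi1 fell by 0.72. The RNA-binding protein gene Rbm6 fell by 0.66, the U1 snRNP gene Snrnp70 by 0.58, the nuclear anchoring gene Akap8l by 0.59 and the chromatin remodeller gene Chd6 by 0.58. The 2 probe sets of Chd6 were at -0.33 (adjusted p = 0.121) and -0.83 (adjusted p = 0.0338), and those of Rbm6 at -0.53 and -0.79. Mtres1, a mitochondrial transcription gene, fell by 0.72, the small GTPase gene Rabl2 by 0.71, Fam193b by 0.67 and Adam1a, a membrane metalloprotease-family gene, by 0.64. With the covariate Mtres1 was at -0.45 and Rbm6 at -0.43.

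Uterine epithelial and hormone-responsive genes gave no call. Of 27 luminal epithelium genes 20 lay below WT with a median of -0.16, and the protease gene Tmprss2 changed by -0.74 and the transcription factor gene Klf5 by -0.57 (adjusted p = 0.243 and 0.253). WT replicate 1 was high for Tmprss2, at 1.21 against -0.02 and -0.01 in the other two WT arrays. The 23 gland genes had a median of -0.04, and Foxa2, the transcription factor of uterine glands, changed by -0.47 (adjusted p = 0.275). Of 30 oestrogen-responsive genes 21 lay above WT with a median of 0.32, and of 23 progesterone-responsive genes 16 lay below WT with a median of -0.11. The 31 smooth muscle genes had a median of 0.05, which turned to -0.08 after quantile normalisation, and the 41 collagen and matrix genes one of 0.11. Matrix protease and inhibitor genes lay above WT for 23 of 27 members with a median of 0.28.

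Circadian clock genes gave no call among 16 measured, although 8 had an unadjusted p below 0.05, against 3048 of all 19938 genes. Their median change was 0.30 in the uterus and 0.41 in the vas deferens of the same genotype. There Bhlhe41 was the 1 called clock gene, with a rise of 1.04 (adjusted p = 0.0287). Cry1, a repressor of the clock, read 0.57, 0.00 and 0.18 in WT and -0.52, -0.28 and -0.31 in DKO, a change of -0.62 (adjusted p = 0.0588). Against the same WT arrays Cry1 was called lower in AHDK (-0.77) and AKDH (-0.78). Dbp, an output gene of the clock, read -1.03, -0.58 and -1.10 in WT and 0.84, 0.66 and -0.22 in DKO, a change of 1.33 (adjusted p = 0.0915). The sources used here do not give the hour of collection, and its part in other values was not tested. Of the 46 lists examined, 33 held no called gene, with medians between -0.16 and 0.44.

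The other mutant uteri share the WT arrays with DKO, so their changes are given only side by side. In AHDK, which lacks a Hoxa9,10,11 copy in addition, 97 of the 124 rises and 54 of the 70 falls were called in the same direction, with medians of 0.60 and -0.54. In AKDH these counts were 77 and 62, and in AKO they were 1 and 2. The medians in AKO were 0.26 and -0.35, and 118 of the rises and 68 of the falls had the same sign there. Over all genes the median change was -0.02 in AHDK, -0.01 in AKDH and 0.01 in AKO. The shares of all genes called, or of the same sign, in these mutants are not given here. The shared WT arrays by themselves favour the same direction, so nothing is read from these counts. Of the 15 largest rises, AHDK was at or above DKO in 12 and AKO was below DKO in all 15. The 15 were chosen for a large change in DKO, which by itself favours lower values in the other mutants. Retnlg changed by 3.70 in AHDK, 2.40 in AKDH and 0.88 in AKO, and Ccr3 by 2.42, 1.21 and 0.38. Cd209f was nearly level across the mutants, at 2.19, 1.95 and 1.95.

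**Figure D4:**
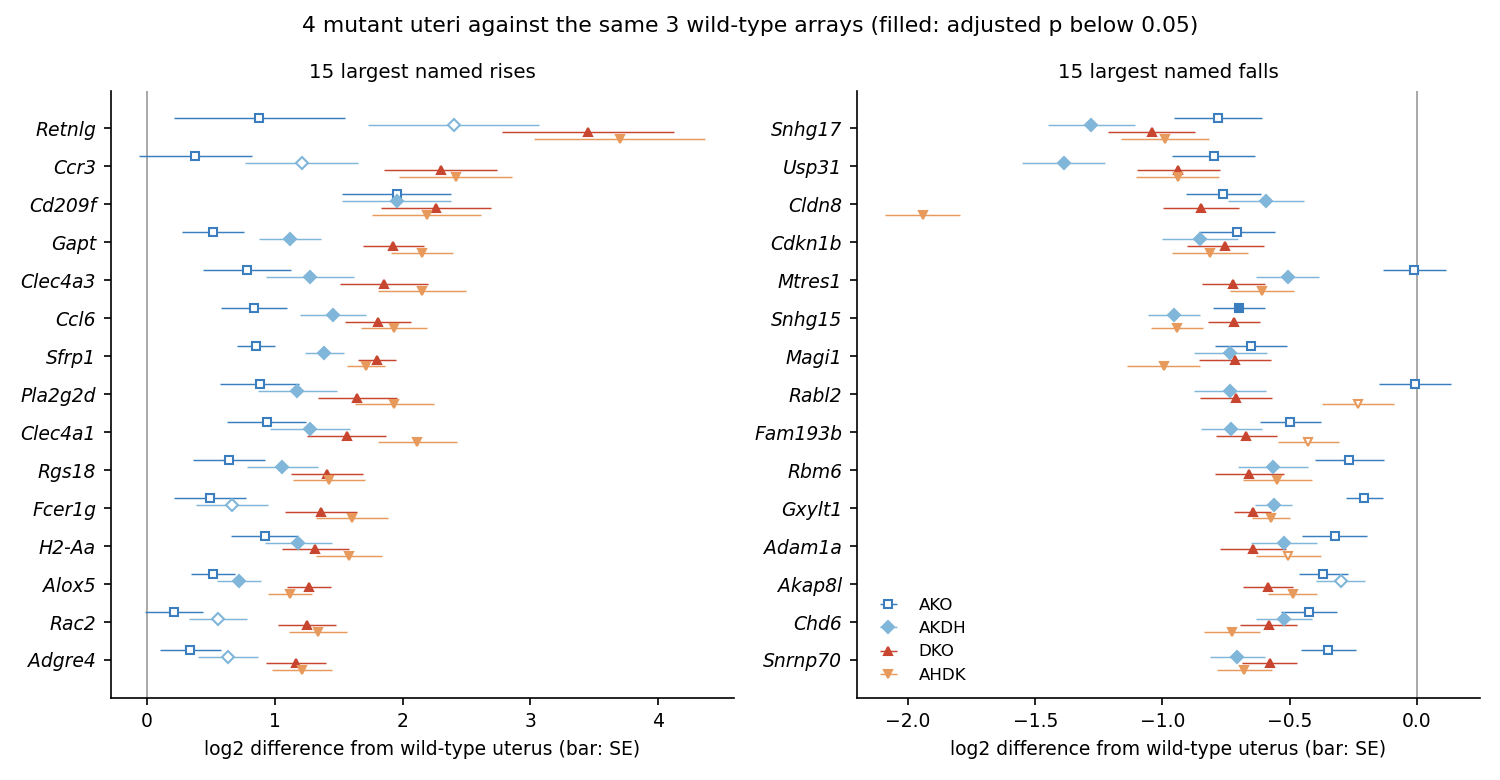
Log2 difference from the same 3 WT uterus arrays (horizontal axis, bars are the SE of the fit) in AKO, AKDH, DKO and AHDK for the 15 largest rises and the 15 largest falls of DKO (vertical axes), with filled symbols for an adjusted p below 0.05. AHDK is called for all 15 rises and AKO for none; Cldn8 lies at -1.94 in AHDK against -0.85 in DKO.

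Tested directly, DKO differed from AKO in 37 genes (0.186%), 22 higher and 15 lower in DKO. Among the rises, 4 also differed from AKO: Gapt by 1.41 (adjusted p = 0.0435), Sfrp1 by 0.95 (adjusted p = 0.0313), Metap1d by 0.66 (adjusted p = 0.00701) and the ribosomal protein gene Rpl38 by 0.43. Sfrp1 read -0.87, -0.49 and -0.65 in AKO, between the WT and the DKO arrays. Among the falls, Gxylt1 was 0.44 lower on the log2 scale than in AKO, and the uncharacterised gene Gm15612 was the other. For Retnlg and Ccr3 the difference between DKO and AKO was not called. The 37 genes also held some that did not differ between DKO and WT: the relaxin family receptor gene Rxfp2 was 2.56 above AKO, the anion exchanger gene Slc26a7 3.37, Aldh1a2 2.30 and the axon guidance receptor gene Robo2 2.40, while the uroplakin gene Upk1a was 2.42 lower on the log2 scale. These were picked after their values were seen. Without AKO replicate 1, 2 or 3 the count was 7, 15 or 150, and without DKO replicate 2 or 3 it was 15 or 11.

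Between DKO and AHDK 5 genes differed (0.0251%). Cldn8 was 1.09 higher in DKO (adjusted p = 0.0454), with AHDK arrays at -1.69, -1.30 and -1.32. Rxfp2 was 2.60 and Slc26a7 2.76 higher in DKO, and Kap was 3.40 and Smpd3 0.84 lower on the log2 scale. None of the 15 largest rises differed between DKO and AHDK. The count was 71 without DKO replicate 1, 1 without DKO replicate 2 or AHDK replicate 3, and 2 without DKO replicate 3 or AHDK replicate 1.

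The vas deferens of the same genotype was measured on separate arrays. There DKO was higher than WT in 768 genes (3.85%) and lower in 402 (2.02%). Of the 124 uterine rises 28 were also called higher in the vas deferens and none lower, with a median of 0.16, and of the 70 falls 6 were called lower and 2 higher, with a median of -0.02. The same sign was seen for 62.4% of the 194 genes, against 55.4% of all genes. None of the 15 largest rises was called in the vas deferens. Retnlg changed there by -0.34, Ccr3 by 0.07, Ccl6 by -0.62 and Sfrp1 by 0.43. Of the 28 shared rises, picked after the values were seen, Rex1bd rose by 1.03 in the uterus and 0.70 in the vas deferens, and Cnpy2 by 0.66 and 0.64; their uterine changes with the small RNA covariate were 0.61 and 0.30.

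The DKO effect differed between uterus and vas deferens in 226 genes (1.13%), among them 39 of the rises and 33 of the falls. For 13 of the 15 largest rises the difference was called, with Cd209f and Rac2 the exceptions. These genes were chosen by their uterine change, and the difference reuses the same uterus arrays. A large difference is therefore partly built in for them. Mir10b fell in the uterus and rose by 0.77 in the vas deferens (adjusted p = 0.0229), where WT read -0.19, -0.19 and -0.13 and DKO 0.91, 0.42 and 0.46. Its difference of -2.43 between the tissues was called. Of the 19 small RNA genes, 4 were also lower in the vas deferens, with Snord47 at -1.78 and Snord49b at -1.14, and Mir10b was the only one that was higher.

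**Figure D5:**
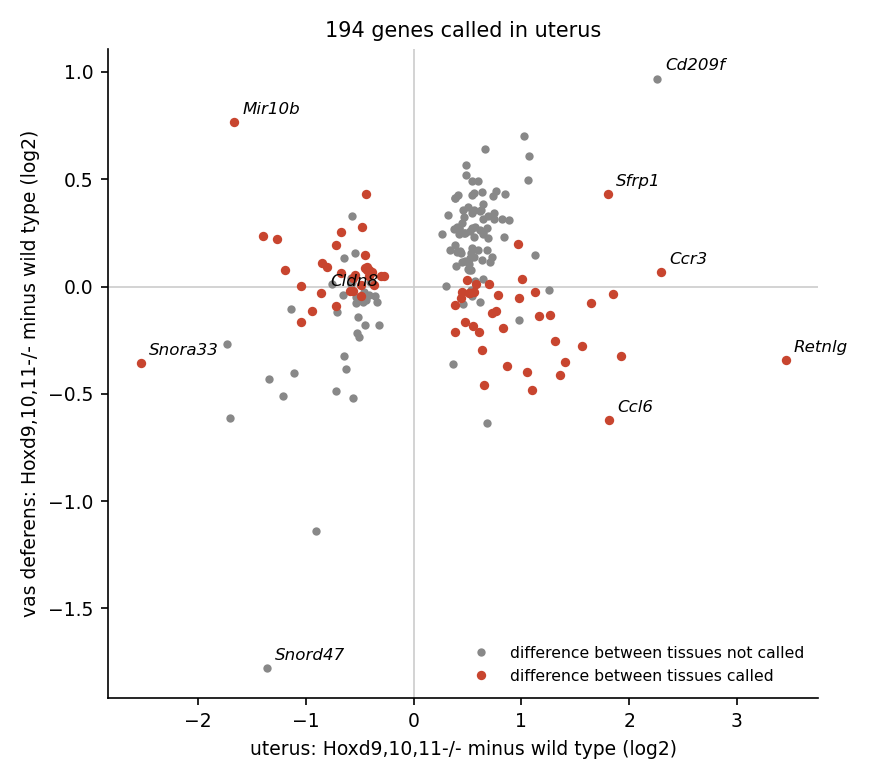
Change in DKO against WT in the uterus (horizontal axis, log2) and in the vas deferens (vertical axis, log2) of the 194 genes called in the uterus, with red points where the difference between the tissues was itself called. The large uterine rises such as Retnlg (3.45 against -0.34) lie near or below 0 in the vas deferens, Sfrp1 lies at 0.43 and Mir10b at 0.77.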

How the data were processed

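RNA was measured on 42 Affymetrix gene arrays in 14 groups of 3, from 300 ng of total RNA per sample, per the labels' protocols. The authors deposited log values, taken as log2, for 28856 probe sets; the values themselves show that each was centred on the female and on the male median. No source used here gives the log base, summarisation, normalisation between arrays or array build, and signal over background is lost, so the number of arrays limits the precision and no filter on dim probe sets was made. Of the probe sets, 21789 had 1 gene symbol, 1621 several and 5446 none, and 21698 matched RefSeq genes of GRCm38.p6. Probe sets of a gene were averaged, which left 999 genes with several.

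Models were fitted with limma (version 3.58.1, R 4.3.3; functions lmFit and eBayes; residual df 10, prior df 2.05) on the 15 uterus arrays, with Benjamini-Hochberg adjustment over 19938 genes, after a test on simulated data. P-values reflect only the spread among these samples. The tissue difference used the 15 uterus and 15 vas deferens arrays. An exact permutation of 3 against 3 arrays cannot go below p = 0.1. Named genes were the 15 largest rises and falls without overlap, passing over small RNA, clone-named and olfactory genes, the Hox genes, and of 46 lists the called members with up to 3 others of smallest p. The members and lists were chosen with earlier results of these data known.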

Additional observations from a re-analysis of the deposited data

Results flagged for a closer look

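The effect of the genotype labelled Hoxd9,10,11-/- was set against that in the vas deferens as a difference of differences (limma, 15 uterus and 15 vas deferens arrays), and 226 genes differed between the tissues at an adjusted p below 0.05. Among the largest rises, uterus minus vas deferens was 3.79 for Retnlg, 2.43 for Ccl6, 2.25 for Gapt, 2.23 for Ccr3, 1.89 for Clec4a3, 1.84 for Clec4a1, 1.77 for Fcer1g, 1.76 for Rgs18 and 1.72 for Pla2g2d. It was 1.57 for H2-Aa, 1.40 for Alox5, 1.37 for Sfrp1 and 1.30 for Adgre4. Among the largest falls it was -0.96 for Cldn8, -0.92 for Fam193b, -0.91 for Magi1, -0.88 for Snhg17, -0.83 for Usp31, -0.63 for Snhg15 and -0.56 for Akap8l. The genes listed were chosen by their uterine change on the same uterus arrays, so large differences are partly built in. Sex and tissue cannot be told apart in these differences.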

How the results depend on the processing

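The 194 calls of DKO against WT became 19 after quantile normalisation, 55 among genes above the median SD, 464 with array weights, 577 at an adjusted p below 0.10, and 0 both with the 6 arrays alone and with the small RNA mean as a covariate. They stayed within 1.5 times at 171 with array medians set to 0, 179 with robust eBayes and 239 with each probe set by itself. Leaving out 1 array gave between 2 and 133 calls, 7 to 150 for DKO against AKO (37), 1 to 71 for DKO against AHDK (5) and 65 to 285 for the tissue difference (226). Quantile normalisation gave 34, 10 and 85 for these 3, in that order. The replicate numbers did not pair the WT and DKO samples, whose same-number correlations were -0.05, 0.14 and 0.40; with the replicate number as a block the counts were 168, 18, 5 and 271. Direction turned for Hoxd10 with the small RNA covariate (-0.31), and when 1 array was left out for Hoxd11 (-0.42 to 0.082), Hoxa10 (-0.26 to 0.0115) and Hoxa11 (-0.31 to 0.45), none of which was called in any fit. Of the 30 named genes past the threshold, 7 were called after quantile normalisation and 17 with the block. The cause of these changes was not tested.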
